A study of Homo sapiens with 27 samples.

Results

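The genes described here are 42 genes of DNA replication and the G1/S transition, chosen by name from the 57165 genes of the deposited count table, and all 42 had enough counts to be tested in both cell lines. The RNA of SUM159 and MDA-MB-231 cells was sequenced. Both are established human lines of triple-negative breast cancer with a mesenchymal phenotype, and 27 libraries form 9 groups of 3. The question was what changes when ZEB1, a transcription factor that represses epithelial genes, is silenced with dCas9-KRAB, a nuclease-dead Cas9 fused to a repressor domain and guided to the ZEB1 promoter by gRNAs. Wild type cells were not transduced, No gRNA cells carried pLV-KRAB, the lentiviral dCas9-KRAB vector, without a targeting gRNA, and the targeted cells carried it with gRNA 4 alone or with a pool of 4 gRNAs (All gRNA). All transduced cells were selected with puromycin and wild type cells were not, so vector, transduction and selection cannot be told apart in a comparison with wild type.

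SUM159 was sequenced in run 1 as wild type, No gRNA, gRNA 4 and All gRNA. MDA-MB-231 was sequenced in run 2 as wild type, No gRNA and 2 targeted groups, and 3 more SUM159 wild type libraries were also in run 2. For the 6 targeted MDA-MB-231 libraries the labels contradict each other. Libraries whose title gives gRNA 4 have a column name for the pool and are called set 1 here, the others have the opposite conflict and are called set 2, and neither was assigned to a guide. Replicates are described in the labels as biological and in the study's methods as individual clones.

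Before a cell copies its DNA, the origin recognition complex, CDC6 and CDT1 load the MCM2-7 helicase onto origins in G1. At the G1/S transition, cyclin E with CDK2 and the phosphatase CDC25A promote the activation of the helicase by CDC45, the GINS complex and MCM10, after which polymerases, the PCNA clamp and its RFC loader copy the strands. Most of these genes are transcribed under the control of E2F factors, and their RNA is high in proliferating cells.

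Promoter sequences from RefSeq on GRCh38.p14, from 250 bases before to 50 bases after each start site, were found for 36 of the 42 genes. An E2F word (TTTCGCGC or TTTGGCGC on either strand, thus also GCGCGAAA or GCGCCAAA) was present in 13 of the 36 (36.1%) and in 403 of all 35116 promoters of that length (1.15%). For every word searched, members were counted with 1 promoter each, while the set of all promoters was not limited to 1 per gene. The windows shown belong to some of these 13 members, singly or as part of a complex covered by later results, with the E2F word in capitals. E2F1, E2F2 and MCM3 lay below No gRNA in targeted SUM159 cells, POLA1 and MCM2 changed in both MDA-MB-231 sets, and CDC25A rose in both sets. Each is read on the strand of its gene.
E2F1: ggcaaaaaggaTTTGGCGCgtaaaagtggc
E2F2: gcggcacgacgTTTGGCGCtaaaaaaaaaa
MCM3: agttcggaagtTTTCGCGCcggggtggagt
POLA1: gtcatcacaggGCGCCAAAcgcgcgtccgc
CDC25A: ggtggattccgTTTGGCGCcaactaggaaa
MCM2: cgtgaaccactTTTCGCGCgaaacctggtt

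These windows lie at chr20:33686387-33686416 on the minus strand for E2F1, chr1:23531257-23531286 on the minus strand for E2F2, chr6:52284728-52284757 on the minus strand for MCM3, chrX:24693770-24693799 on the plus strand for POLA1, chr3:48188443-48188472 on the minus strand for CDC25A and chr3:127598402-127598431 on the plus strand for MCM2. The word begins 20 bases before the start site of E2F1, 42 before that of E2F2, 4 before that of MCM3, 137 before that of POLA1 and 44 before that of CDC25A, and at base 3 after the start site for MCM2, whose promoter holds 2 matches. These 2 are TTTCGCGC and its reverse complement GCGCGAAA, which overlap in the window shown. Only TTTCGCGC is in capitals there. Other promoter words were searched in the same way on both strands. CCAAT was present in 21 of the 36 (58.3%) against 34.6% of all promoters. CACCTG, an E-box of the kind ZEB1 binds, was present in 4 of the 36 (11.1%) against 20.6% of all promoters. A word is a description of the sequence and no evidence of binding, and the words can overlap each other.

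Each library held estimated counts that summed to 15461200 to 21473757 over all genes, and levels are given as CPM, the count of a gene relative to a scaled library total that is set to the same size in every library. ZEB1 averaged 79.4 CPM in SUM159 wild type of run 1 and 73.6 in No gRNA, against 3.45 for gRNA 4 and 0.733 for All gRNA. The MDA-MB-231 averages of ZEB1 were 69.7 CPM in wild type and 110.1 in No gRNA, against 5.36 in set 1 and 4.74 in set 2. The oestrogen receptor gene ESR1 was near 0 in every group, and vimentin (VIM), a mesenchymal marker, averaged 1326 CPM in set 1 and 1768 to 4055 in the other groups. Of the other mesenchymal markers listed, CD44 (2409 CPM) and AXL (1311 CPM) had their highest group means in set 1, while SPARC averaged 2.62 CPM or less in every MDA-MB-231 group. CLDN4, a claudin of epithelial junctions, was near 0 in SUM159 but averaged 65.9 CPM in MDA-MB-231 wild type. CLDN7, near 0 in SUM159 too, averaged 17.5 CPM in MDA-MB-231 wild type and 84.9 in set 1. E-cadherin (CDH1) averaged 17.9 CPM in set 1 and less in all other groups. Mitochondrial transcripts took 2.99 to 4.39% of counts in run 1 and at most 2.43% in run 2. In bulk RNA, fewer cells in S phase and less RNA of these genes per cell cannot be told apart.

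The summed level of the 42 genes gives a first view of the groups. In SUM159 wild type of run 1 the 3 libraries summed to 3158, 3149 and 3178 CPM. No gRNA summed to 1620, 1722 and 1744 CPM, gRNA 4 to 1618, 1733 and 1665, and All gRNA to 1687, 1685 and 1668. These 3 transduced groups overlapped, and all lay far below wild type of the same run.

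In MDA-MB-231 the summed levels were 5199, 5117 and 5152 CPM in wild type and 2137, 2101 and 2151 in No gRNA. Set 1 summed to 1666, 1693 and 1641 CPM and set 2 to 4548, 4453 and 4618. The 4 groups did not overlap, set 1 was below and set 2 above No gRNA, and neither set reached wild type. The sum weighs abundant genes most, so the member counts and medians that follow give each gene the same weight.

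**Figure D1:**
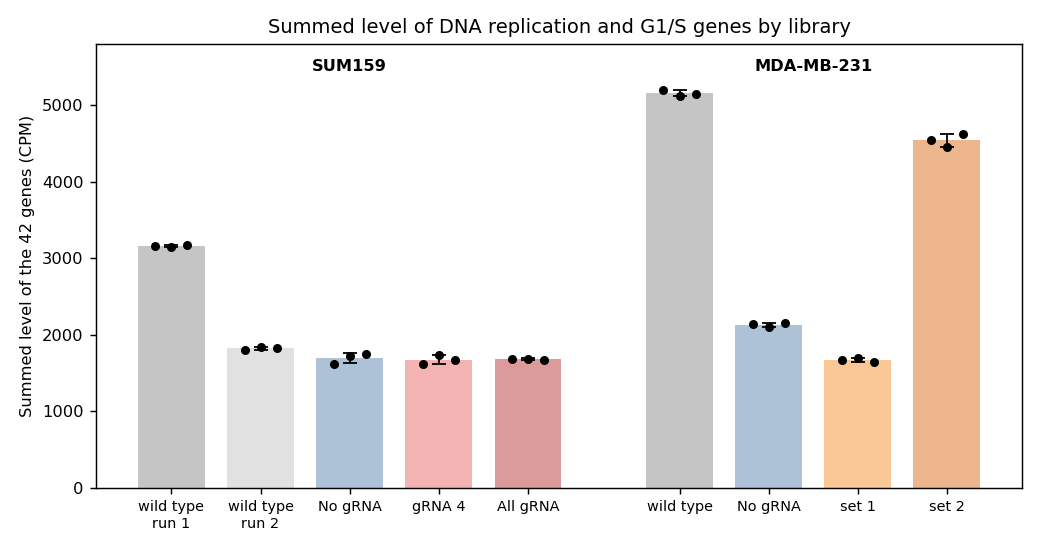
Summed level of the 42 genes in CPM for each library (points), with the group mean (bars) and SD (error bars, n = 3), for the 5 SUM159 and 4 MDA-MB-231 groups. The transduced SUM159 groups overlap between 1618 and 1744 CPM, and in MDA-MB-231 set 1 (1641 to 1693 CPM) and set 2 (4453 to 4618 CPM) lie on opposite sides of No gRNA.

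Members differed in how far they followed the sum. By group means, wild type was the highest run 1 group of SUM159 for 39 of the 42 genes, the exceptions being CCNE1 (cyclin E1), CDT1 and ORC1. In MDA-MB-231, wild type was highest for 32 genes and set 2 for 10, and set 1 was lowest for 34 and No gRNA for 8. The order set 1, No gRNA, set 2, wild type, from low to high and with no overlap between neighbouring groups, held for 18 genes, among them RRM2, TYMS, PCNA, LIG1 and MCM4. These orders were counted over the 42 members only. The share of all genes with the same order was not counted, so whether the members stand out by it is not known. The coefficient of variation among the 3 libraries of a group had a median over the members of 4.74% in set 2 to 9.78% in SUM159 gRNA 4, and reached 54.4% for E2F2 in set 1.

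**Figure D2:**
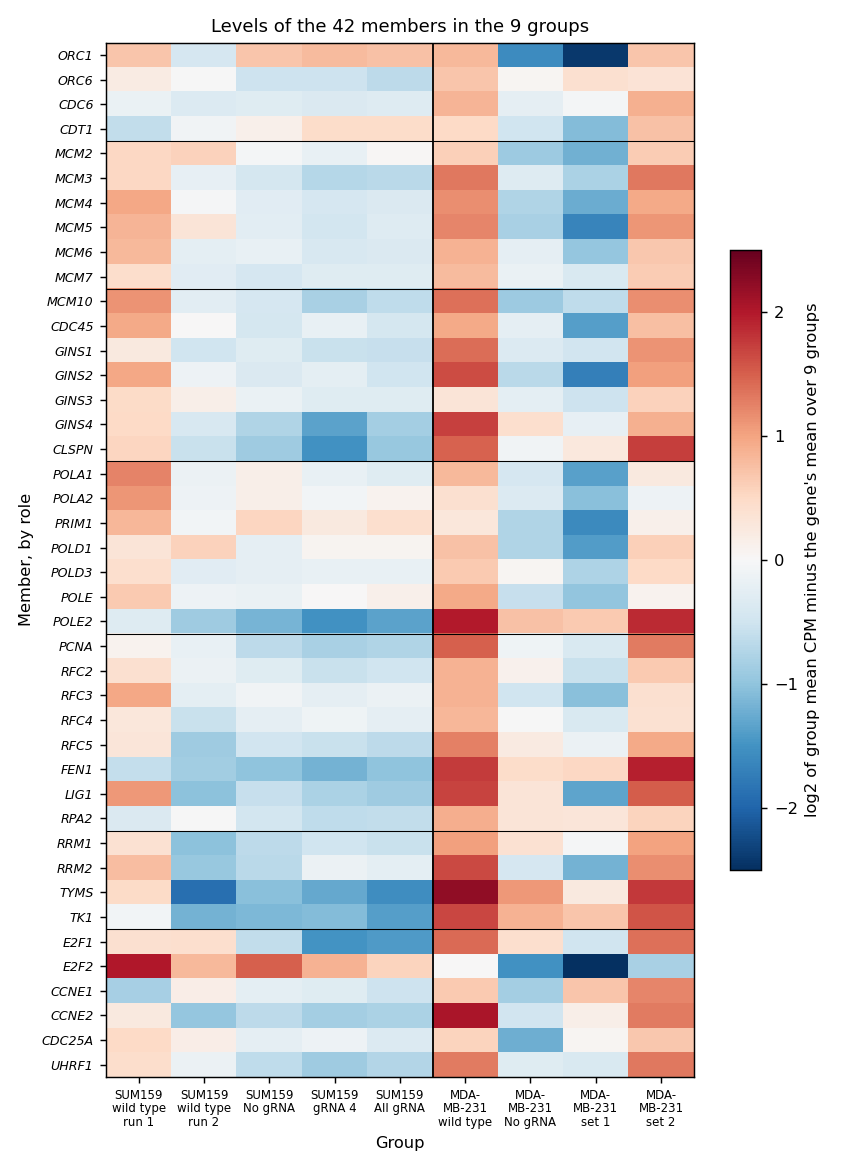
Heatmap of the 42 genes (rows, by role) in the 9 groups (columns), where colour is the log2 of the group mean CPM minus the mean of that gene over the 9 groups. MDA-MB-231 wild type and set 2 are red for most genes, No gRNA and set 1 mostly blue, and the transduced SUM159 groups resemble each other.

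In SUM159, most of these genes were near their No gRNA level in both targeted groups. With All gRNA, RRM2 rose and TYMS, E2F1 and E2F2 fell. With gRNA 4, RRM2 again rose and MCM3, E2F1 and E2F2 fell. Each comparison thus called 4 of 42 members by limma's moderated test at an adjusted p under 0.05, where the share of all tested genes called was 10.8% with All gRNA and 11% with gRNA 4. Shares of 9.52% among members were therefore near the background. The median log2 fold change of the members was -0.09 with All gRNA and -0.15 with gRNA 4. None passed TREAT, limma's test against an absolute log2 fold change of 1, where 0.396% and 0.390% of all genes did. By unadjusted p under 0.05, TREAT also gave 0 members. The moderated test at that level gave 9 members with All gRNA (21.4%, against 24.9% of all genes) and 16 with gRNA 4 (38.1%, against 25.1%). Both comparisons share the No gRNA libraries.

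E2F1, a transcription factor that activates S phase genes, was at 13.9, 13.3 and 15.7 CPM in SUM159 No gRNA. It was at 7.25, 8.05 and 8.23 CPM with gRNA 4 and at 8.01, 8.81 and 7.86 with All gRNA. Every targeted library was below every No gRNA library. The log2 fold change was -0.79 ± 0.10 (SE, adjusted p = 0.000433) with All gRNA and -0.87 ± 0.10 (adjusted p = 0.000226) with gRNA 4.

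E2F2, a related activator of the same family, was at 8.88, 10.7 and 7.96 CPM in No gRNA, 7.27, 5.96 and 4.61 with gRNA 4 and 4.22, 5.96 and 4.22 with All gRNA. The groups did not overlap with No gRNA, by a narrow margin for gRNA 4. The log2 fold change was -0.93 ± 0.19 (adjusted p = 0.00839) with All gRNA and -0.64 ± 0.18 (adjusted p = 0.0453) with gRNA 4. The gRNA 4 call was lost when any of No gRNA replicates 1 and 2 or gRNA 4 replicates 2 and 3 was left out, at adjusted p-values of 0.0939 to 0.163. The moderated test also lost it without the filter on low counts (adjusted p = 0.0863) or with only the 2 groups compared (adjusted p = 0.0997). By edgeR's quasi-likelihood test it was just missed (adjusted p = 0.05001).

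RRM2, the small subunit of ribonucleotide reductase, which makes deoxynucleotides, moved the other way. It was at 88.4, 110.7 and 113.0 CPM in No gRNA, 137.4, 166.0 and 146.8 with gRNA 4 and 145.5, 139.8 and 137.0 with All gRNA. All targeted libraries were above all No gRNA libraries and below the 271.1 to 298.4 CPM of wild type of run 1. The log2 fold change against No gRNA was 0.45 ± 0.10 (adjusted p = 0.0106) with All gRNA and 0.52 ± 0.10 (adjusted p = 0.00385) with gRNA 4.

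TYMS, thymidylate synthase, was at 35.1, 36.1 and 39.4 CPM in No gRNA, 34.9, 33.6 and 25.4 with gRNA 4 and 22.5, 26.2 and 28.9 with All gRNA. The fall passed the test with All gRNA (log2 fold change -0.51 ± 0.13, adjusted p = 0.0226), while the value with gRNA 4 was -0.26 ± 0.12 (adjusted p = 0.224). The difference between the targeted groups was -0.26 with a 95% interval of -0.54 to 0.03. TYMS shares exon sequence with genes on the opposite strand, and the strandedness of the libraries is not stated, so its values are uncertain.

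MCM3, a subunit of the replicative helicase, was at 106.3, 100.4 and 103.2 CPM in No gRNA, 90.0, 81.0 and 87.7 with gRNA 4 and 80.6, 92.3 and 92.2 with All gRNA. Both targeted groups lay below No gRNA without overlap. The change passed with gRNA 4 (log2 fold change -0.27 ± 0.07, adjusted p = 0.0264) and not with All gRNA (-0.22 ± 0.07, adjusted p = 0.0573). By DESeq2's Wald test the All gRNA change passed as well (adjusted p = 0.0129). With only the 2 groups compared, the moderated test lost the gRNA 4 call (adjusted p = 0.0521). Without gRNA 4 replicate 2 or gRNA 4 replicate 3, the members called for gRNA 4 dropped from 4 to 2, MCM3 and E2F2 both losing the call. The MCM3 call was also lost without No gRNA replicate 1 (adjusted p = 0.0896) or No gRNA replicate 3 (adjusted p = 0.0662).

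In the other roles no member was called in SUM159 against No gRNA. Among licensing factors, CDT1 had the largest log2 fold change against No gRNA, 0.32 ± 0.28 with All gRNA and 0.29 ± 0.28 with gRNA 4, neither past the test, and its libraries ranged from 31.0 to 64.2 CPM within gRNA 4 alone. CLSPN, the checkpoint mediator claspin, was at -0.62 ± 0.20 (adjusted p = 0.0733) with gRNA 4 and -0.05 ± 0.19 with All gRNA. Its gRNA 4 change passed by DESeq2's Wald test (adjusted p = 0.0253), and by the moderated test without No gRNA replicate 1 (adjusted p = 0.0488). POLA1, the catalytic subunit of polymerase alpha, was at -0.42 ± 0.15 (adjusted p = 0.0908) with All gRNA. This POLA1 value ranged from -0.28 without No gRNA replicate 2 to -0.59 without No gRNA replicate 1, where it passed the test (adjusted p = 0.013), as it did by DESeq2's Wald test (adjusted p = 0.0189). LIG1, which joins Okazaki fragments, was at -0.32 ± 0.16 (adjusted p = 0.234). Cyclin E1 (CCNE1) was at 6.94, 8.75 and 6.27 CPM in No gRNA and 6.18, 6.91 and 5.15 CPM with All gRNA, which overlap.

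All gRNA and gRNA 4 were not distinguished for any member in SUM159. The moderated test called 0 of 42, as did DESeq2's Wald test and edgeR's quasi-likelihood test, and the moderated test called 0.944% of all genes. At an unadjusted p under 0.05 there were 3 members (7.14%, against 11.5% of all genes). The largest difference was for CLSPN, 0.57 higher with All gRNA on the log2 scale, with a 95% interval of 0.13 to 1.01.

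**Figure D3:**
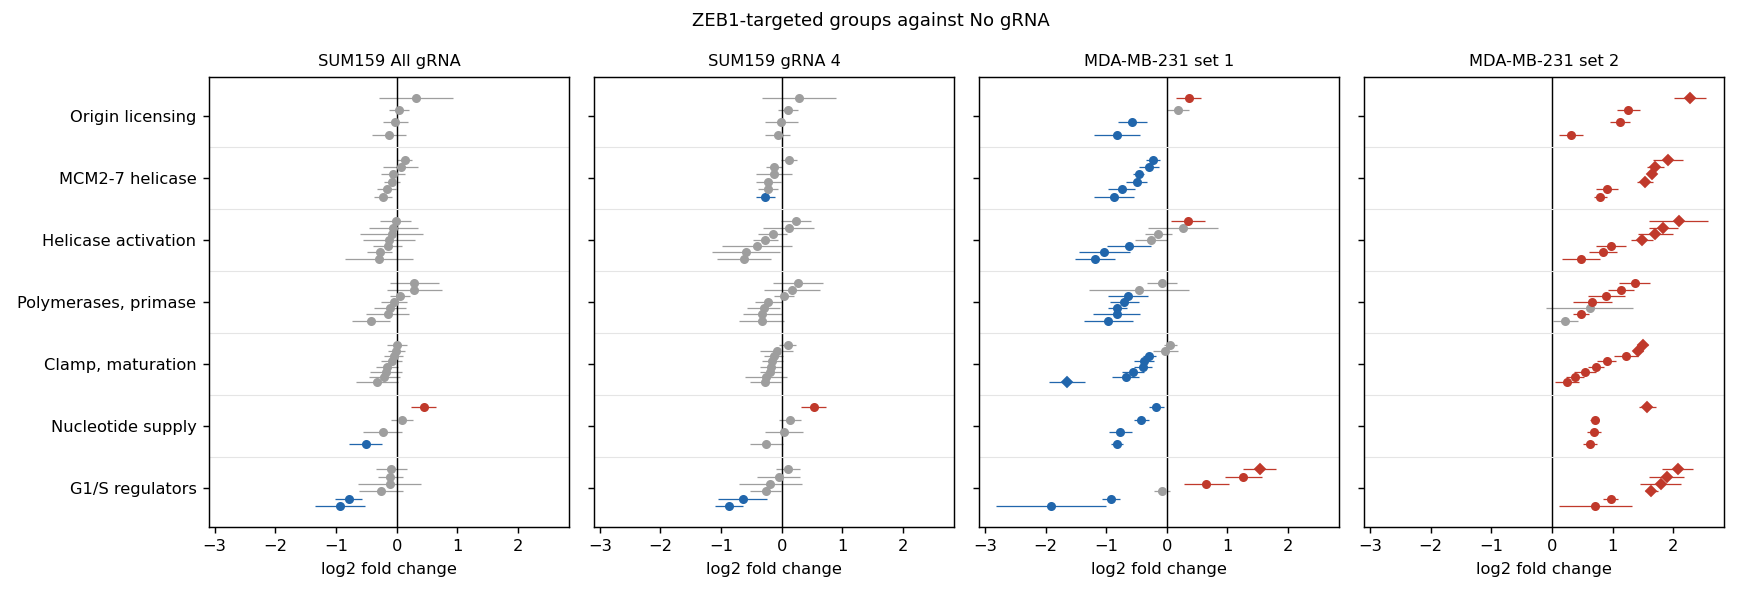
Log2 fold change against No gRNA with 95% intervals for each of the 42 genes, by role, in the 4 targeted groups. Red marks genes called higher, blue genes called lower and grey genes not called by the moderated test, and diamonds mark genes past TREAT. SUM159 points cluster near 0, set 1 lies mostly left of 0 and set 2 right of it.

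In MDA-MB-231 the targeted sets departed from No gRNA in different directions. In set 1, 28 members fell and 5 rose, with 37.8% of all tested genes called in either direction (17.3% lower and 20.4% higher). The median log2 fold change of the members was -0.46. In set 2, 40 members rose and none fell, with 52.4% of all tested genes called (27.3% higher), and the median was 1.05. The 2 members of set 2 not called were POLA2 (0.22), a regulatory subunit of polymerase alpha, and POLE (0.62), the catalytic subunit of polymerase epsilon. TREAT called 2 members in set 1, CCNE1 and LIG1, against 1.47% of all genes, and 16 members in set 2, all higher, against 1.74% of all genes called higher. The 2 comparisons share the No gRNA libraries.

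The direct comparison of the sets does not use No gRNA. Set 1 was below set 2 for 41 of 42 members, against 25.2% of all genes called lower, with a median log2 fold change of -1.51. TREAT called 24 members lower, against 1.21% of all genes. The exception was ORC6, the smallest subunit of the origin recognition complex, at 40.8, 41.5 and 41.9 CPM in set 1 and 39.8, 40.4 and 39.1 CPM in set 2. ZEB1 itself was similarly low in both sets, at 4.77, 5.54 and 5.78 CPM in set 1 and 4.98, 3.75 and 5.48 CPM in set 2.

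Licensing factors were uneven. ORC1, the largest subunit of the origin recognition complex, was at 26.7, 23.1 and 26.6 CPM in wild type and 4.43, 4.46 and 5.62 in No gRNA. It was at 2.84, 2.86 and 2.43 CPM in set 1 and 23.9, 23.4 and 22.8 in set 2. Set 2 overlapped wild type, and set 1 and No gRNA were each separate and low. Against No gRNA the log2 fold change was -0.82 ± 0.17 (adjusted p = 0.00292) in set 1 and 2.28 ± 0.12 (adjusted p = 3.64e-08) in set 2, the largest rise of any member. The ORC1 gene spans chr1:52372829-52404423 in GENCODE on GRCh38, and the values cover all its transcripts.

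CDT1, the licensing factor that loads MCM2-7, decreased by 0.57 (log2) in set 1 (SE 0.11, adjusted p = 0.00161) and rose by 1.26 ± 0.09 in set 2. ORC6 rose in both, by 0.36 ± 0.09 in set 1 (adjusted p = 0.00898) and 0.31 ± 0.09 in set 2 (adjusted p = 0.0133). CDC6, a loading ATPase, was at 79.2, 79.4 and 79.9 CPM in set 1 and 73.8, 72.5 and 64.3 in No gRNA, a difference that did not pass the test, and rose by 1.13 on the log2 scale in set 2.

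All 6 subunits of the MCM2-7 helicase fell in set 1 and rose in set 2. The median log2 fold change was -0.48 in set 1 and 1.60 in set 2. MCM5 was at 142.8, 114.8 and 127.4 CPM in wild type and 32.5, 33.2 and 29.2 in No gRNA. It was at 15.6, 16.3 and 20.5 CPM in set 1 and 111.6, 117.5 and 126.7 in set 2, which overlapped wild type. Relative to No gRNA its log2 fold change was -0.87 ± 0.15 (adjusted p = 0.000855) in set 1 and 1.91 ± 0.11 (adjusted p = 7.49e-08) in set 2. MCM7 had the smallest changes of the complex in both sets, -0.23 in set 1 and 0.79 in set 2, and it overlaps a gene on the opposite strand.

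Of the 7 helicase activation factors, 3 fell and 1 rose in set 1, and all 7 rose in set 2. For such counts by role, the shares of all genes were 17.3% lower and 20.4% higher in set 1. In set 2, 27.3% were higher. CDC45, the helicase cofactor, was at 27.4, 28.5 and 27.03 CPM in No gRNA, 14.1, 13.9 and 9.05 in set 1 and 52.3, 50.4 and 60.4 in set 2. Its log2 fold change was -1.18 ± 0.15 (adjusted p = 0.000101) in set 1 and 0.97 ± 0.11 (adjusted p = 2.43e-05) in set 2. GINS2, a GINS subunit whose reads may include an overlapping gene, decreased by 1.03 (log2) (SE 0.19, adjusted p = 0.0013) in set 1 and rose by 1.71 ± 0.13 in set 2.

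MCM10, a replication initiation factor, behaved otherwise in set 1. It was at 13.0, 12.3 and 16.4 CPM in No gRNA and 21.8, 13.9 and 15.1 CPM in set 1, which overlap (log2 fold change 0.27 ± 0.26, adjusted p = 0.459). In set 2 it was at 60.9, 50.5 and 65.1 CPM, and the rise was 2.09 ± 0.22 (adjusted p = 1.1e-05). CLSPN rose in both sets, by 0.35 ± 0.13 in set 1 (adjusted p = 0.0475) and 1.84 ± 0.11 in set 2, with the limit that it overlaps a gene on the opposite strand.

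Polymerase and primase genes had the lowest median in set 1, -0.70, with 5 of 7 called lower, and in set 2 a median of 0.67 with 5 of 7 called higher. POLD1, the catalytic subunit of polymerase delta, was at 20.7, 25.0 and 25.8 CPM in No gRNA, 15.4, 16.8 and 13.6 in set 1 and 63.6, 66.7 and 53.0 in set 2. The log2 fold changes were -0.64 ± 0.15 (adjusted p = 0.00549) and 1.37 ± 0.12 (adjusted p = 1.89e-06). POLA1 fell by 0.97 in set 1 (SE 0.18) and rose by 0.67 ± 0.15 in set 2. POLE varied most between the libraries of set 2, with a coefficient of variation of 36.5%.

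Among the clamp, its loader and the maturation enzymes, 6 of 8 fell in set 1 and all 8 rose in set 2. LIG1 was at 27.2, 35.2 and 33.2 CPM in No gRNA, 8.93, 11.04 and 10.7 in set 1 and 70.8, 73.7 and 75.9 in set 2, with wild type at 82.9, 77.4 and 86.8. The set 1 fall of 1.64 on the log2 scale (SE 0.14, adjusted p = 3.24e-06 by the moderated test and 0.0235 by TREAT) and the set 2 rise of 1.22 ± 0.09 (adjusted p = 6.58e-07) left a log2 difference between the sets of -2.86 ± 0.13. LIG1 overlaps a gene on the opposite strand. The TREAT calls in set 1 did not survive the removal of single libraries, as only 0 or 1 member was left called without any 1 of the 3 No gRNA or 3 set 1 libraries.

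PCNA, the sliding clamp, was at 83.3, 79.6 and 83.7 CPM in No gRNA, 70.6, 66.7 and 65.0 in set 1 and 220.2, 219.4 and 215.7 in set 2. FEN1, the flap endonuclease, was at 93.4, 92.4 and 94.95 CPM in No gRNA and 98.4, 95.8 and 98.3 in set 1, a log2 fold change of 0.06 ± 0.05 (adjusted p = 0.397). In set 2 it rose by 1.49 ± 0.04 (adjusted p = 1.97e-10) to 275.4, 254.5 and 257.1 CPM, above all wild type libraries (229.3 to 235.5 CPM).

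The 4 genes of nucleotide supply all fell in set 1 and all rose in set 2. RRM2 was at 125.8, 115.9 and 131.1 CPM in No gRNA, 76.5, 69.0 and 74.5 in set 1 and 371.4, 341.6 and 392.2 in set 2, with wild type at 496.2 to 540.7. Its log2 fold change was -0.76 ± 0.09 (adjusted p = 4.05e-05) in set 1 and 1.57 ± 0.07 (adjusted p = 6.01e-09) in set 2. TYMS fell by 0.83 in set 1 and rose by 0.70 in set 2, and TK1, thymidine kinase, fell by 0.18 and rose by 0.69.

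Of the 6 G1/S regulators, 3 were called higher, 2 lower and 1 not called in set 1, and in set 2 all 6 rose. Licensing (1 higher and 2 lower) and helicase activation (1 higher and 3 lower) also had calls in both directions in set 1. Calls in both directions were common there, with 20.4% of all genes higher and 17.3% lower. CCNE1, which activates CDK2 at the G1/S transition, was at 4.63, 4.84 and 5.14 CPM in No gRNA. It was at 14.6, 15.5 and 12.4 CPM in set 1 and 19.6, 20.8 and 20.96 in set 2, with wild type at 13.7, 12.7 and 14.6. Every targeted library was above every No gRNA library, set 1 overlapped wild type, and set 2 exceeded it. The log2 fold change against No gRNA was 1.53 ± 0.12 (adjusted p = 2.84e-06) in set 1 and 2.07 ± 0.12 (adjusted p = 7.61e-08) in set 2.

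CDC25A, the phosphatase that removes inhibitory phosphates from CDK2, was at 12.6, 11.7 and 12.4 CPM in No gRNA, 31.2, 29.5 and 27.7 in set 1 and 46.8, 39.6 and 49.9 in set 2. It rose by 1.26 ± 0.14 (adjusted p = 2.72e-05) in set 1 and 1.89 ± 0.13 (adjusted p = 3.06e-07) in set 2. CCNE2, cyclin E2, rose by 0.65 ± 0.17 (adjusted p = 0.0103) in set 1 and 1.79 ± 0.15 in set 2, though it overlaps a gene on the opposite strand.

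E2F1 went the other way in set 1. It was at 29.98, 28.6 and 30.1 CPM in No gRNA, 16.2, 15.6 and 15.1 in set 1 and 57.5, 58.1 and 57.1 in set 2. The log2 fold change was -0.92 ± 0.07 (adjusted p = 1.58e-06) in set 1 and 0.97 ± 0.05 (adjusted p = 6.16e-08) in set 2. E2F2 was called lower in set 1 (-1.91 ± 0.41, adjusted p = 0.00364), but from only 2.20 to 7.28 estimated counts per set 1 library, so that its fitted fold change depends on few counts. UHRF1, which recruits DNA maintenance methylation to replicated DNA, was at 44.5, 44.3 and 41.2 CPM in set 1 against 48.6, 45.1 and 43.8 in No gRNA, and at 142.2, 142.1 and 140.5 in set 2.

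**Figure D4:**
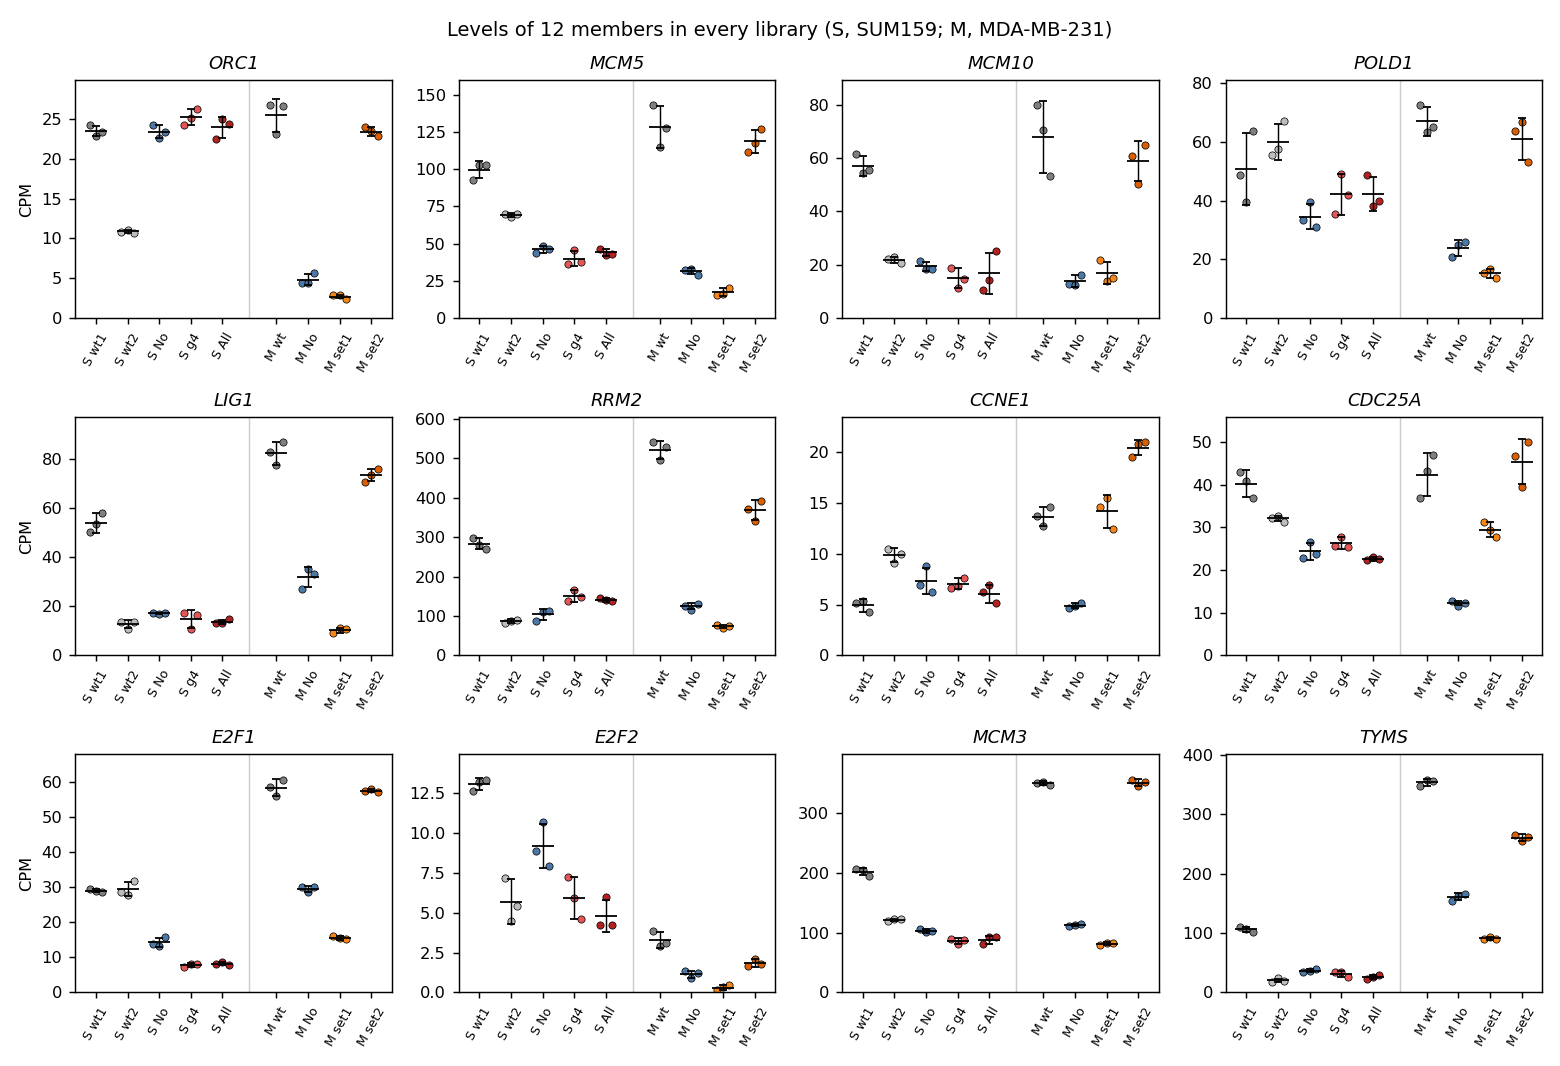
CPM of 12 of the genes in each library (points) of the 9 groups, with the group mean and SD (n = 3), where S is SUM159, M is MDA-MB-231, wt1 and wt2 are the wild type libraries of runs 1 and 2, and g4 is gRNA 4. CCNE1 and CDC25A are above No gRNA in both MDA-MB-231 sets. The other 10 panels show set 2 above No gRNA and set 1 below it, except for MCM10. Its set 1 libraries overlap No gRNA and have a higher mean. E2F1 is lower in both targeted SUM159 groups than in No gRNA.

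Against wild type, the members were mostly lower in every transduced group of both lines. In SUM159, 37 members fell and 1 rose with All gRNA (median log2 fold change -0.99, with 48.7% of all genes called in either direction and 24.3% lower). With gRNA 4, 37 fell and 2 rose (median -0.96, 46.8% of all genes called and 23.6% lower). No gRNA, which carries no guide, gave 37 lower and 1 higher (median -0.87, 42.9% of all genes called and 21.9% lower). These comparisons share the wild type libraries of run 1. TREAT called 6 members lower with All gRNA, 9 with gRNA 4 and 4 with No gRNA, against 0.640%, 0.726% and 0.489% of all genes. The gRNA 4 count was 5 without wild type replicate 2 and 5 without wild type replicate 3.

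LIG1 had the largest fall in SUM159 No gRNA, from 50.3, 53.4 and 58.1 CPM in wild type of run 1 to 17.5, 16.9 and 17.2 CPM (log2 fold change -1.65 ± 0.13, adjusted p = 1.84e-06). TYMS fell from 110.0, 106.8 and 102.3 CPM to 35.1, 36.1 and 39.4 CPM (-1.54 ± 0.10, adjusted p = 5.88e-07). ORC1 was not called, with a log2 fold change of -0.01 and a 95% interval of -0.17 to 0.15 in No gRNA. CDT1 was higher than wild type with All gRNA (1.06 ± 0.29, adjusted p = 0.0106) and gRNA 4 (1.03 ± 0.30, adjusted p = 0.0136). The gRNA 4 call for CDT1 was lost without wild type replicate 1 (adjusted p = 0.0574) or gRNA 4 replicate 2 (adjusted p = 0.0525).

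The SUM159 wild type control itself differed between runs. In run 2, 34 members were lower and 2 higher than in run 1 (median log2 fold change -0.81), where 55% of all genes were called and 27% were lower. TYMS was at 18.01, 23.6 and 20.02 CPM in run 2 (-2.39 ± 0.10, adjusted p = 8.14e-15), RRM2 at 81.4, 87.6 and 90.3 CPM (-1.72 ± 0.08, adjusted p = 1.18e-13) and LIG1 at 13.6, 10.7 and 13.5 CPM (-2.10 ± 0.14, adjusted p = 1.16e-11). CCNE1 rose to 10.5, 9.13 and 9.93 CPM (1.00 ± 0.14, adjusted p = 2.42e-06). E2F1 stood at 28.6, 27.9 and 31.7 CPM in run 2 against 29.5, 28.9 and 28.7 in run 1. Run, culture and library preparation cannot be told apart between these wild type groups.

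Set against the wild type libraries of run 2, a control chosen after the data were seen, the SUM159 values moved toward 0. All gRNA then had 6 members higher and 16 lower (median -0.21, 45.2% of all genes called), gRNA 4 had 6 higher and 18 lower (median -0.15, 46.7%), and No gRNA 10 higher and 15 lower (median -0.13, 43.5%). RRM2 and LIG1, which were below wild type of run 1, had values above wild type of run 2 in all 3 transduced groups. E2F1 stayed below in both: its targeted libraries, at 7.25 to 8.81 CPM, were under all 6 wild type libraries.

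In MDA-MB-231, where wild type, No gRNA and both sets shared 1 run, all 42 members fell in No gRNA compared with wild type (median log2 fold change -1.36, with 53.8% of all genes called and 27.6% lower), and TREAT called 20 of them lower (1.27% of all genes). CCNE2 had the largest fall, 2.61 on the log2 scale (SE 0.14, adjusted p = 4.17e-08), from 56.5, 65.1 and 60.7 CPM to 13.1, 8.78 and 9.75 CPM. Set 1 had 41 members lower than wild type (median -1.91, with 59.5% of all genes called and 29.8% lower), 33 of them by TREAT (3.37% of all genes). CCNE1 alone was not called, at -0.01 with a 95% interval of -0.23 to 0.21.

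Set 2 had the median nearest to wild type. It had 23 members lower and 2 higher (median -0.23, with 36.3% of all genes called and 18.5% lower), and no member passed TREAT (1.44% of all genes did), nor at an unadjusted TREAT p under 0.05. The 2 higher members were CCNE1 (0.53 ± 0.09, adjusted p = 0.00104) and FEN1 (0.13 ± 0.03, adjusted p = 0.0129). MCM3 was at 356.6, 345.1 and 352.0 CPM in set 2 and 351.6, 352.9 and 347.6 CPM in wild type, with a fitted log2 difference of -0.05 and a 95% interval of -0.11 to 0.01. The fit scaled the 12 libraries of the line and CPM all 27, so differences this near 0, such as those of MCM3 here and CCNE1 in set 1, can have opposite signs on the 2 scales. E2F1 (57.1 to 58.1 CPM against 56.0 to 60.7 CPM) also overlapped wild type.

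**Figure D5:**
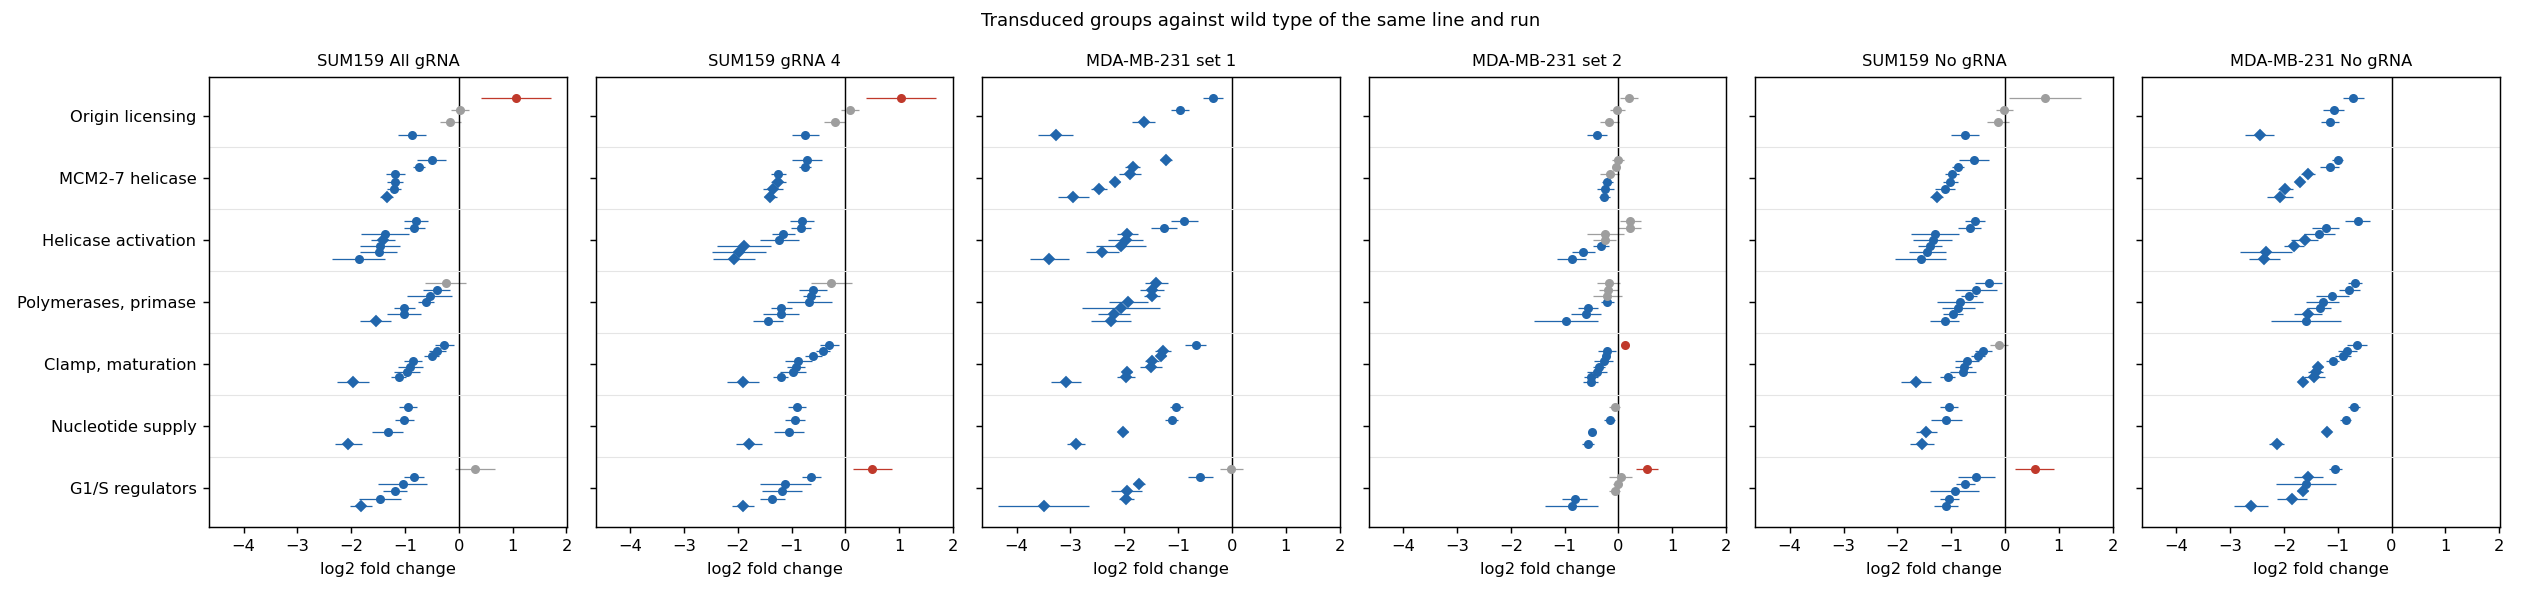
Log2 fold change against wild type of the same line and run, with 95% intervals, for each of the 42 genes by role in the 4 targeted and 2 No gRNA groups. Colours and diamonds are as for the plot against No gRNA. Points lie left of 0 in most panels (medians -0.87 to -1.91), while those of set 2 lie near it (median -0.23).

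The design asks which members differ from both controls in the same direction. In SUM159, 3 members were lower than both controls of run 1 with All gRNA (E2F1, E2F2 and TYMS, with 2.98% of all genes) and 3 with gRNA 4 (E2F1, E2F2 and MCM3, with 2.90%). This depends on the run of the wild type. Against wild type of run 2, the moderated test did not call E2F2 with All gRNA (-0.23, adjusted p = 0.387). Nor did it with gRNA 4 (0.070, adjusted p = 0.812). TYMS with All gRNA overlapped wild type of run 2 and had the higher mean. RRM2 lay between the controls in both (1.31% of all genes did with All gRNA and 1.35% with gRNA 4). The gRNA 4 count was 1 without gRNA 4 replicate 2 or gRNA 4 replicate 3. In set 1, 28 members were lower than both controls (10.8% of all genes) and 4 lay between them (4.45% of all genes). In set 2, 2 were higher than both (9.48% of all genes), none was lower, and 21 lay between (8.51% of all genes).

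The response also differed between the lines when the mean of both targeted groups was compared with No gRNA in each. By the interaction term, 22 members had a higher value in MDA-MB-231 and none a lower one, with 25.6% of all genes called, 12.7% higher and 12.9% lower. The average of set 1 and set 2 hides their opposite directions for most members. CCNE1 (1.94 ± 0.17, adjusted p = 1.79e-08) and CDC25A (1.56 ± 0.14, adjusted p = 1.48e-08), which rose in both sets, were the 2 members past TREAT. Line and run cannot be told apart here, since the guided SUM159 libraries were all in run 1.

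The wild type lines differed as well. Within run 2, 38 members were lower and 1 higher in SUM159 than in MDA-MB-231, where 71.1% of all genes were called and 36.5% were lower. TYMS differed most, at 18.01 to 23.6 CPM in SUM159 and 346.6 to 358.1 CPM in MDA-MB-231. E2F2 was the member higher in SUM159 (0.76 ± 0.22, adjusted p = 0.00445).

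Other replication genes, from a list of 51 that excludes the members, were counted in the same way. In set 1, 22 fell and 6 rose against No gRNA (median -0.19), and in set 2, 41 rose and 2 fell (median 0.72). The shares of all tested genes were 17.3% lower and 20.4% higher in set 1, and 27.3% higher in set 2. GMNN, geminin, the inhibitor of CDT1, fell by 0.69 in set 1 and rose by 1.39 in set 2. POLD4 rose by 0.51 in set 1 and fell by 0.86 in set 2. In SUM159 the same list had 1 gene higher and 1 lower with All gRNA and 2 higher and 2 lower with gRNA 4. There 10.8% of all genes were called with All gRNA and 11% with gRNA 4.

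Genes of G2 and mitosis, from a list of 20, moved in MDA-MB-231 as well. In set 1, 14 fell and 2 rose against No gRNA (median -0.43), and in set 2, 18 rose and none fell (median 0.65). Of all tested genes, 17.3% were lower and 20.4% higher in set 1, and 27.3% were higher in set 2. CCNB1, cyclin B1, fell by 0.45 in set 1 and rose by 0.76 in set 2, and KIF20A, a mitotic kinesin, fell by 0.71 and rose by 1.63. UBE2C, a ubiquitin conjugase of the anaphase-promoting complex, rose by 0.60 in set 1 and was at -0.01 in set 2. In SUM159, 2 of the 20 rose and none fell in each targeted group. That was near the share of all genes called, 10.8% with All gRNA and 11% with gRNA 4.

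Of 7 CDK inhibitor genes, 5 could be tested in MDA-MB-231, and 2 rose and 1 fell in set 1, while 1 rose and 2 fell in set 2. In either direction, 37.8% of all genes were called in set 1 and 52.4% in set 2. With 5 genes, the counts say little about the inhibitors as a group. CDKN1A, the p21 inhibitor of cyclin E-CDK2, was singled out after its values were seen. It was at 113.0, 102.9 and 108.9 CPM in No gRNA, 348.6, 354.0 and 340.4 in set 1 and 104.4, 101.8 and 104.7 in set 2, with wild type at 58.3, 52.8 and 50.0. Set 1 stood apart from all other groups, with a log2 fold change against No gRNA of 1.68 ± 0.04 (adjusted p = 3.13e-10 by the moderated test and 1.96e-06 by TREAT). Whether this bears on the lower replication genes of set 1 was not tested.

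The members were also divided by whether their promoter holds an E2F word, as a description with no test. In set 1 the 13 members with the word had a median log2 fold change of -0.46 against No gRNA and the 23 without it -0.42. In set 2 the medians were 0.97 with the word and 1.22 without. In SUM159 they were -0.15 with and -0.09 without for All gRNA, and -0.23 with and -0.08 without for gRNA 4.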

How the data were processed

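RNA was sequenced by the authors as 50 bp single-end reads and quantified with Salmon, with GRCh38 named in the submitters' processing notes. The authors deposited estimated counts from tximport, corrected for transcript length but not normalized between libraries. Salmon's version, the annotation and strandedness are not given in the sources used here. All 27 libraries were used, and 56347 of 57165 identifiers matched gene symbols.

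Analysis used R 4.3.3 with limma 3.58.1 and edgeR 4.0.16: TMM scaling, filterByExpr (minimum count 10) and voom over the 12 libraries of a line (0.5 added to each count), with 27 libraries for comparisons between lines or runs. P-values are two-sided, Benjamini-Hochberg adjusted over all genes tested, from the moderated test against 0 or from TREAT (absolute log2 fold change above 1), at a threshold of 0.05. Exact permutation of 3 against 3 libraries cannot go below p = 0.1 and was not used for calls. CPM used TMM-scaled totals. The steps were tested on simulated data. Estimated counts were rounded for edgeR's and DESeq2 1.42.0's own tests, which were alternatives, as were other scalings, filters, weights, library sets and single libraries left out.

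The members and lists were chosen with earlier results of these data known. Named members are, for each role and line, the one with the largest change against No gRNA. Other named genes were chosen after their values were seen. Of the members, 13 share exon sequence with a gene on the opposite strand. No library pair was identical, and p-values measure the spread between these libraries.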

Additional observations from a re-analysis of the deposited data

Results flagged for a closer look

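A test of the difference between the lines drew attention to 22 members, each with a higher value in MDA-MB-231 than in SUM159 when the mean of the 2 targeted groups is compared with No gRNA. Of all genes tested, 25.6% were called, 12.7% higher and 12.9% lower. Among the genes named by rule, the differences on the log2 scale were 0.64 for ORC1, 0.82 for MCM3, 0.64 for MCM5, 1.51 for MCM10, 1.41 for CLSPN and 1.94 for CCNE1. The sets of MDA-MB-231 differ from each other for most of these genes, and the lines were sequenced in different runs, so line and run cannot be told apart. Groups of 3 libraries are too small for a test of single outlying libraries.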

How the results depend on the processing

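Of 220 summary values recomputed under other settings, 204 stayed within 1.5 times the reported count, and 174 of 186 did so with a single library left out. The 2 TREAT calls of set 1 against No gRNA became 1 with DESeq2 size factors, upper quartile scaling, no filter on low counts or the replicate block, 0 with only the 2 groups compared, and 0 to 1 with each library left out. The 9 TREAT calls of SUM159 gRNA 4 against wild type became 5 with the replicate block and 5 to 8 with libraries left out. The 4 members called for gRNA 4 against No gRNA became 2, and the 3 lower than both controls became 1, with only the 2 groups compared, and these counts ranged from 2 to 4 and from 1 to 3 with libraries left out. DESeq2's Wald test gave 5 members against both controls for All gRNA and 5 for gRNA 4. Upper quartile scaling left 1 member of set 2 higher than both controls.

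With the wild type of run 2 as control, chosen after seeing the data, the members called were 22 for All gRNA (1 by TREAT), 24 for gRNA 4 (1 by TREAT) and 25 for No gRNA. Signs of single genes were listed only for those named by rule, and other members may also have turned positive. Among the named genes, the log2 fold changes that turned positive with All gRNA were LIG1 0.14 and RRM2 0.71. With gRNA 4 they were LIG1 0.21, RRM2 0.80 and E2F2 0.070. In No gRNA they were POLA1 0.28, LIG1 0.46, RRM2 0.26 and E2F2 0.70. Values near 0 also changed sign. CCNE1 in set 1 against wild type was 0.000696 by DESeq2's Wald test, from -0.076 without set 1 replicate 2 to 0.080 without set 1 replicate 3, and 0.034 without wild type replicate 3. CLSPN with All gRNA against No gRNA ranged from -0.19 without No gRNA replicate 1 to 0.096 without All gRNA replicate 2, and was 0.035 without No gRNA replicate 3. The cause of these changes was not tested.

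Same-numbered replicates did not deviate together (0 of 39 pairs had a correlation over 0.1, from -0.147 to 0.0644), so the replicate number was not used as pairing, and the replicate block moved 2 of 27 summary counts. With 3 libraries a group, small changes in genes of few counts, such as E2F2, are the least certain.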
